A study of Homo sapiens with 16 samples.

Results

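The genes described here are 111 genes of RNA processing, modification, export and decay that the MDA231 brain metastasis table of this study named. MDA231 is a human triple-negative breast cancer line, and the cells were its brain-metastatic derivative, grown in mouse brain for 30 days. The genes were chosen by the authors' enrichment values: they are the union of genes in 10 of 314 listed Gene Ontology biological process terms whose name holds RNA together with a word for processing, splicing, modification, methylation, export, catabolism, metabolism or stability. Genes also named for snRNA transcription by RNA polymerase II or in any of 8 mitochondrial terms were taken out, which removed 14 of 125 genes. The remaining 111 are a small part of the 2646 genes named anywhere in the MDA231 terms.

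The MDA231 table stands for 4 immunoprecipitated (IP) and 4 input libraries. A matching table of 37 terms stands for 4 IP and 4 input libraries of HCC1954, an ERBB2-positive breast cancer line. The HCC1954 cells were likewise the line's brain-metastatic derivative, grown in mouse brain for 30 days. All 16 libraries came from brains of mice given 250 mg/kg 5-fluorocytosine 12 hours before harvest. In Flura-seq, cells that can convert this compound place fluorouridine in new RNA, which an anti-BrdU antibody then recovers. The sources used here do not give the enzyme that makes the cells able to do so, the mouse strain, the animals' age or whether animals were pooled. The values analysed here hold no level per gene or library, so depth is unknown and replicate error cannot be given for any value. Neither the choice of the listed genes nor their direction in IP against input is stated, so a listed gene is described here with no direction.

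RNA processing turns a primary transcript into a working molecule. A tRNA is trimmed at its ends, relieved of its intron and given many modified bases, an rRNA is cut from a long precursor and methylated or pseudouridylated, and an mRNA is capped, spliced, polyadenylated, exported through the nuclear pore and later shortened, decapped and degraded. Cells that grow and divide depend on all of these routes, and many of their enzymes are expressed in every tissue.

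The terms differed in size and in how far they stood above the list as a whole, which took in 3626 of 16792 background genes (21.6%). In the authors' deposited table, 0 of the 10 terms passed 0.05 by the adjusted p, against 4.78% of all 314 listed terms, and 7 passed it by the unadjusted p, against 68.2%. These p-values chose the members and test nothing further. The smallest adjusted p was 0.323, for snRNA processing, and the folds ran from 1.26 to 3.21 with a median of 2.24 in the authors' deposited table, beside a median of 1.93 over the other 304 listed terms. The term nearest the listing limit was rRNA methylation, with an unadjusted p of 0.0837 in the authors' deposited table, where the largest in the table was 0.0973. Terms beyond that limit were not analysed here.

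Grouped by the RNA in the term's name, 38 genes (34.2%) belonged to tRNA terms, 22 (19.8%) to mRNA terms, 5 (4.50%) to rRNA methylation and 1 to snRNA processing. The other 48 (43.2%) came from RNA splicing and RNA methylation, whose names give no class. All 22 mRNA genes and 37 of the 38 tRNA genes were in no other group, but only 2 of the 5 rRNA genes were. HENMT1 and MRM2, 40% of the rRNA genes, were shared with the group whose names give no class. Overlap among the other listed terms is not given here for comparison. FBL was the 1 gene shared by the tRNA and rRNA terms, which is 2.63% of the tRNA genes and 20% of the rRNA genes. In all, 105 of 111 genes were in 1 matching term and 6 were in 2, namely FBL, DCPS, HENMT1, MRM2, ZFP36 and ZFP36L2.

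**Figure D1:**
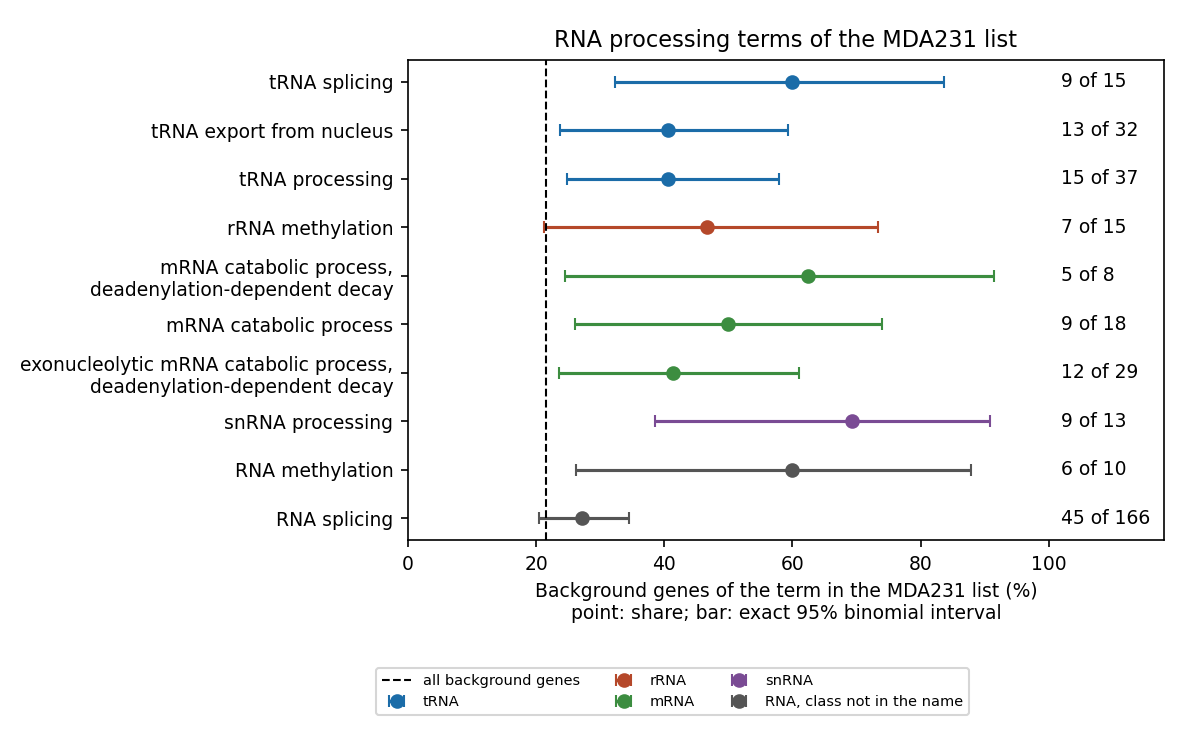
Each row is a matching term of the MDA231 table, coloured by the RNA class in its name. The horizontal axis gives the percent of the term's background genes that were listed, the bars are exact 95% binomial intervals over the draw of genes, and the dashed line marks 21.6% for all background genes; tRNA splicing stands at 9 of 15 genes and RNA splicing, at 45 of 166, lies closest to the line.

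Promoters of 4 members are shown first, 1 for each route that the results below turn on. TSEN34 is a subunit of the tRNA splicing endonuclease, FBL joins the tRNA and rRNA terms, ZFP36 is in both general mRNA decay terms, and NUP62 is a nuclear pore gene found in many other terms. Each runs 5′ to 3′ on the gene's strand, from 250 bases before to 50 bases after the annotated start, as RefSeq gives it on GRCh38.p14. Capitals mark matches, on either strand, to the GC box, which reads GGGCGG, the CCAAT box, the ETS core, which reads CCGGAAG, the NRF1 core, which reads GCGCATGCG, or the TATA core, spelled as TATAAA. The capitals of different motifs do not overlap. They lie at chr19:54190094-54190393 on the plus strand (TSEN34), chr19:39846330-39846629 on the minus strand (FBL), chr19:39406597-39406896 on the plus strand (ZFP36) and chr19:49929455-49929754 on the minus strand (NUP62).
TSEN34: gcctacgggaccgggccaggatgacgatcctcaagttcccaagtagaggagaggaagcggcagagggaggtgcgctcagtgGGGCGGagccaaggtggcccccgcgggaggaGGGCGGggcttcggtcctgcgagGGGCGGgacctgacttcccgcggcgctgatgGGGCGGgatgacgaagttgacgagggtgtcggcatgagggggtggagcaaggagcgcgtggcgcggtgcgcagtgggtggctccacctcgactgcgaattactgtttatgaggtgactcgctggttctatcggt
FBL: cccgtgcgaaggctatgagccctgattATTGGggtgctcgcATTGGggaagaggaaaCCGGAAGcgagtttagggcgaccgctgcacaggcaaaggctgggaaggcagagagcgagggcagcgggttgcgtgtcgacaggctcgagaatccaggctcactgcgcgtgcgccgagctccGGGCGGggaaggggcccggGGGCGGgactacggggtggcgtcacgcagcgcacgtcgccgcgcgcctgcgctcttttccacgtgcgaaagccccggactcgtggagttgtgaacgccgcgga
ZFP36: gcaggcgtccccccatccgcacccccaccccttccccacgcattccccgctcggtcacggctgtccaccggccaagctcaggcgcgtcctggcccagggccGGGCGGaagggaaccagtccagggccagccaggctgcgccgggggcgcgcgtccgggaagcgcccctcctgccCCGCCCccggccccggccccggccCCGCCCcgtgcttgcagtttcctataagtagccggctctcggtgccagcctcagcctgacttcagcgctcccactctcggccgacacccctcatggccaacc
NUP62: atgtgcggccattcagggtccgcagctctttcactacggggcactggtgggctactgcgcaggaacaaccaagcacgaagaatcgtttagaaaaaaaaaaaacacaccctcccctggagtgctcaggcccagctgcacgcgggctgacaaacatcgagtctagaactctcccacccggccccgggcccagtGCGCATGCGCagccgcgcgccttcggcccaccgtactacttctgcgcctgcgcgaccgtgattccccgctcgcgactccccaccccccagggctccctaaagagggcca

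TSEN34 held 4 GC boxes, from -169 to -79 relative to its start, and no match to the other motifs. FBL held 2 GC boxes, 2 CCAAT boxes and 1 ETS core. ZFP36 held 3 GC boxes, and its promoter was the richest of the 4 in G and C, at 74.7%, against 67.7% in FBL, 66.7% in TSEN34 and 63.0% in NUP62. NUP62 held no GC box. The NRF1 core matched from -59 to -51 on the gene's strand and from -58 to -50 on the other strand. These matches overlap, and the marked stretch as a whole reads the same on both strands. A match of letters is a description and not a shown binding site.

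Among tRNA genes, subunits of the splicing endonuclease were named. Some tRNA genes hold an intron that this enzyme cuts out, and its subunits TSEN15, TSEN34 and TSEN54 were in tRNA splicing via endonucleolytic cleavage and ligation, which held 9 of 15 background genes (60.0%, exact 95% binomial interval 32.3 to 83.7) at 2.78-fold (unadjusted p = 0.00691, adjusted p = 0.534) in the authors' deposited table. Other genes of the term were CLP1, an RNA kinase bound to the endonuclease, TRPT1, a tRNA phosphotransferase, and C2orf49, also called ashwin. CPSF4 and CSTF2, subunits of the machinery that cleaves the ends of pre-mRNA, were also in the term. Of RTCB, the catalytic subunit of the ligase that joins the cut ends, and DDX1, RTRAF, FAM98B and ZBTB8OS, 0 of 5 appeared in any MDA231 term. Beside 15.8% of all background genes, a count of 0 among so few genes is not read as a difference. A gene that is listed but in no listed term would not be seen.

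These endonuclease genes lie on different chromosomes. On GRCh38 in GENCODE release 29, TSEN15 (ENSG00000198860) spans 72.3 kb of chromosome 1, from 184051651 to 184123978 on the plus strand. TSEN34 (ENSG00000170892) spans 4.6 kb of chromosome 19, from 54189938 to 54194536 on the plus strand, and TSEN54 (ENSG00000182173) spans 8.68 kb of chromosome 17, from 75516060 to 75524739 on the plus strand.

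The term tRNA processing brought together enzymes that trim and modify tRNA, with 15 of 37 background genes (40.5%, interval 24.8 to 57.9) at 1.88-fold (unadjusted p = 0.0179, adjusted p = 0.697) in the authors' deposited table. Pseudouridine synthases, which turn uridine into its isomer, were PUS1, PUS7, PUS7L and TRUB2. TYW1 and TRMT12 act in the synthesis of wybutosine, a bulky base beside the anticodon of phenylalanine tRNA. ADAT1 deaminates adenosine in alanine tRNA, MTO1 and TRMU modify the wobble uridine of mitochondrial tRNAs, and TRMT1L is a guanosine methyltransferase.

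End trimming was represented by POP7, a protein of RNase P and RNase MRP, and PRORP, the nuclease subunit of the protein-only RNase P of mitochondria. FBL, the methyltransferase fibrillarin, and AARS1 and KARS1, the alanyl and lysyl tRNA synthetases, completed the named enzymes. The term printed 16 identifiers for a deposited count of 15. The identifier without a symbol, ENSG00000258790, overlaps PRORP on chromosome 14 (35122549 to 35317474 against 35121846 to 35277614, both on the plus strand), so reads of PRORP and of this longer gene may not have been told apart.

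The term tRNA export from nucleus was a nuclear pore group. All of its 13 genes encode pore proteins, out of 32 background genes (40.6%, interval 23.7 to 59.4), at 1.88-fold (unadjusted p = 0.0294, adjusted p = 0.790) in the authors' deposited table. NUP133, NUP160 and NUP43 belong to the outer ring, NUP93 and NUP188 to the inner ring, NUP62 and NUP58 to the central channel, NDC1 and NUP210 to the membrane ring, and NUP88 and RANBP2 to the cytoplasmic side. NUP98, a mobile pore protein, and AAAS, the protein mutated in triple A syndrome, were the other members.

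These 13 pore genes recurred as a block. Each was also named in 5 further terms: they made up 13 of 14 genes of regulation of glucose transport (92.9%), 13 of 16 of mitotic nuclear envelope disassembly (81.2%), 13 of 30 of regulation of cellular response to heat (43.3%), 13 of 37 of protein sumoylation (35.1%) and 13 of 76 of viral process (17.1%). These terms therefore do not count as separate observations of the pore genes. Those 5 terms had adjusted p-values of 0.667, 0.842, 0.133, 0.619 and 0.953 in the authors' deposited table. NUP43 and NUP62 were each in 9 terms outside the matching ones, and NUP188 and NUP93 in 5. The median was 6 other terms for a pore gene and 1 for the remaining 98 RNA processing genes.

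**Figure D2:**
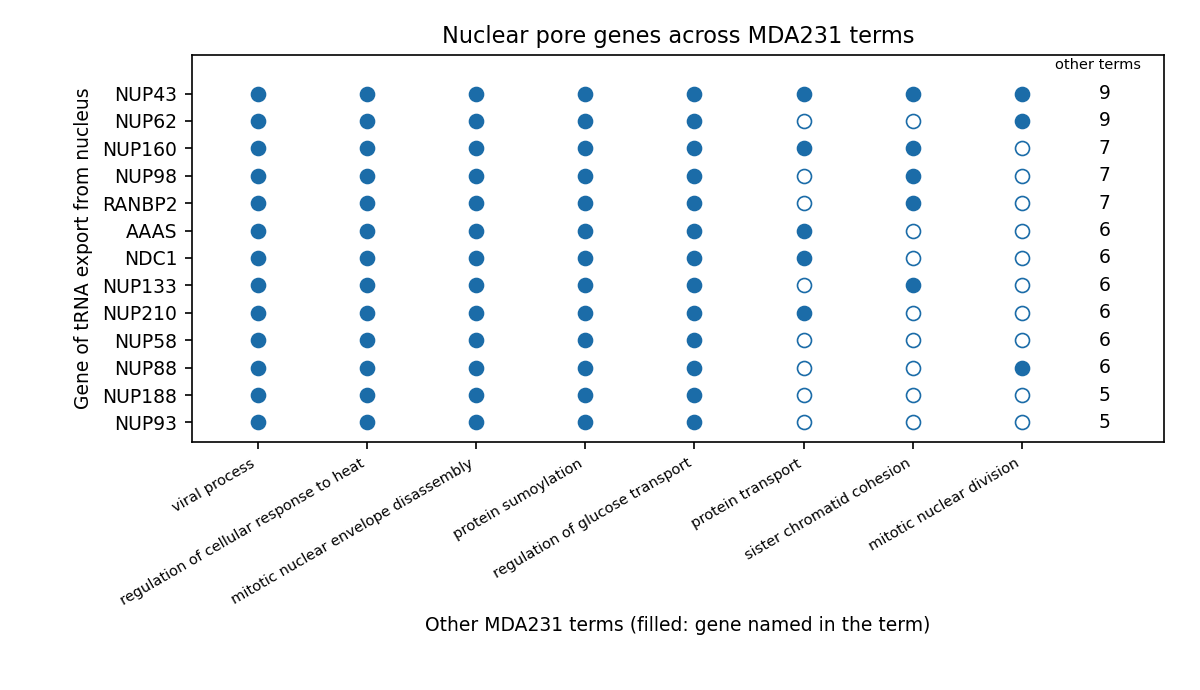
Rows are the 13 genes of tRNA export from nucleus and columns are other MDA231 terms that named at least 2 of them, with filled circles where the gene was named. The first 5 columns are filled for every gene, NUP43 fills all 8, and the number at the right counts all other MDA231 terms that name the gene.

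For rRNA, the only matching term concerned methylation and not the cutting of the precursor. In rRNA methylation, 7 of 15 background genes were listed (46.7%, interval 21.3 to 73.4) at 2.16-fold (unadjusted p = 0.0837, adjusted p = 0.956) in the authors' deposited table. That interval takes in the 21.6% of all background genes. Removal of TFB1M and TFB2M, which are in mitochondrial terms, left 5 genes. FBL, the methyltransferase of box C/D small nucleolar particles, acts on nucleolar rRNA, while MRM2 and NSUN4 methylate mitochondrial rRNA and TRMT61B methylates mitochondrial RNAs. HENMT1 methylates the ends of small RNAs of the piRNA class. Genes that act in mitochondria thus remain among the 111, since a gene was removed only where a term with that word named it. FBL (ENSG00000105202) lies on chromosome 19, from 39834458 to 39846414 on the minus strand, and was the only rRNA gene of the 5 also named in snoRNA localization.

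RNA methylation, which names no class, held 6 of 10 background genes (60.0%, interval 26.2 to 87.8) at 2.78-fold (unadjusted p = 0.0444, adjusted p = 0.862) in the authors' deposited table. HENMT1 and MRM2 were shared with rRNA methylation, which is 33.3% of the RNA methylation genes and 40% of the rRNA methylation genes. FTSJ1 methylates the anticodon loop of tRNAs, MRM3 a mitochondrial rRNA, MEPCE the cap of the 7SK RNA, and BCDIN3D the terminal phosphate of small RNAs.

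The mRNA terms described decay. The exonucleolytic decay term held 12 of 29 background genes (41.4%, interval 23.5 to 61.1) at 1.92-fold (unadjusted p = 0.0334, adjusted p = 0.814) in the authors' deposited table. Decay in the 3′ to 5′ direction was represented by EXOSC1, EXOSC2, EXOSC5 and EXOSC7, which are 4 of the 9 subunits of the exosome core, and by DCPS, which clears the leftover cap. The decapping side was represented by DCP1A, EDC3, EDC4, PATL1, the helicase DDX6 and LSM2, a ring protein that binds shortened tails. NT5C3B, a nucleotidase of cap products, was the last member.

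Other decay routes were named in mRNA catabolic process, with 9 of 18 background genes (50%, interval 26.0 to 74.0) at 2.32-fold (unadjusted p = 0.0253, adjusted p = 0.774) in the authors' deposited table. ZFP36 (tristetraprolin) and ZFP36L2 bind AU-rich elements and bring mRNAs to the deadenylase, and they were also 2 of the 4 genes kept in the deadenylation-dependent decay term, beside DCPS and RC3H1 (roquin). That term held 5 of 8 background genes (62.5%, interval 24.5 to 91.5) at 2.89-fold (unadjusted p = 0.0720, adjusted p = 0.939) in the authors' deposited table. POLR2D, also in that term, was removed. AGO3 and AGO4 are Argonaute proteins, DXO and NUDT16 act on caps, and DIS3L is the nuclease of the cytoplasmic exosome. ERN1, the endoplasmic reticulum stress sensor IRE1, cuts RNA, and ZHX2 is a homeobox transcription factor. ERN1 was in 7 other MDA231 terms, the most of any RNA processing gene outside the pore group, among them protein phosphorylation and the IRE1-mediated unfolded protein response. ZFP36 (ENSG00000128016) spans 2.60 kb of chromosome 19, from 39406813 to 39409412 on the plus strand.

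RNA splicing was the largest term and the one closest to the list as a whole, with 45 of 166 background genes (27.1%, interval 20.5 to 34.5) at 1.26-fold (unadjusted p = 0.0755, adjusted p = 0.946) in the authors' deposited table. Its interval, like that of rRNA methylation, takes in the 21.6% of all background genes. After removal of NCBP1, MTERF3 and MTERF4, 42 genes remained. Core spliceosome genes among them were PRPF8 and EFTUD2 of the U5 particle, PRPF4 and PRPF6 of the tri-snRNP, SNRPA1 of the U2 particle, and the helicases DHX15 and DHX16. SRPK2 phosphorylates SR proteins, HNRNPH3 is an hnRNP protein, THOC5 and THOC6 belong to the THO complex of mRNA export, and WTAP and VIRMA belong to the complex that writes m6A on mRNA.

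Further splicing genes were picked out after their names were seen. SNRNP25, SNRNP35, RNPC3, ZRSR2 and SCNM1 serve the minor spliceosome, which removes the rare U12-type introns. DDX23 and USP39 join the tri-snRNP genes above. CCAR2 and ZNF326 together form the DBIRD complex, which links splicing to transcription elongation, and CCAR2 was in 6 other terms. RBFOX2, RBM5, RBM10, RBM38, PUF60 and FMR1 bind RNA and regulate splicing or translation. USB1 trims U6 snRNA and LSM10 belongs to the U7 particle of histone mRNA. MAGOHB and RBMXL1 have near-identical relatives, MAGOH and RBMX, so their reads may have been split between copies.

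snRNA processing had the highest share, 9 of 13 background genes (69.2%, interval 38.6 to 90.9) at 3.21-fold (unadjusted p = 0.00210, adjusted p = 0.323) in the authors' deposited table. All but 1 of its genes were Integrator subunits (INTS1, INTS3, INTS4, INTS5, INTS6, INTS7, INTS8 and INTS10) that the snRNA transcription term also named, so 8 of 9 were removed. TUT1, which adds uridines to U6 snRNA, was left. TUT1 also stood with CPSF4 and CSTF2 in pre-mRNA cleavage required for polyadenylation, where they were 3 of 5 genes.

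Lists of RNA machinery were then looked up among all genes that the MDA231 terms named. Of 367 genes in 18 lists, 85 (23.2%) were named, 45 of them RNA processing genes, beside 15.8% of all background genes. The listing of these terms fixed which genes could be members, so this share supports nothing further. Pseudouridine synthases (7 of 12) and tRNA splicing (6 of 11) had the highest shares after Integrator (9 of 14). Outside the members, PUS10, RPUSD1 and RPUSD3 were the other pseudouridine synthases named, and the Elongator subunits ELP2, ELP3 and ELP4, the dihydrouridine synthase DUS4L and the methylthiotransferase CDK5RAP1 joined ADAT1, MTO1, TRMU and TYW1 among wobble and other base modifiers (9 of 33). Methyltransferases of tRNA numbered 6 of 32, with NSUN2 and METTL8 beside TRMT1L, TRMT12, TRMT61B and FTSJ1. RNase P and MRP (POP7, 1 of 10) and tRNA end processing (TRNT1, 1 of 8) had few.

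Few ribosome assembly factors were named, and a gene can be named only through a listed term. For rRNA, the only matching term concerned methylation, so these low counts depend on which terms were listed. They are not read as a difference from all background genes. The small subunit processome had UTP4 and HEATR1 of 33 genes (6.06%), large subunit assembly had PES1 and NOP16 of 24 (8.33%), and small nucleolar particle proteins had FBL of 9 (11.1%), each beside 15.8% of all background genes. The exosome, which trims rRNA as well as mRNA, had 5 of 15, all of them members through mRNA terms.

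Among mRNA lists, deadenylation, decapping and nonsense-mediated decay had the most, 11 of 31 (35.5%). CNOT1, CNOT10 and CNOT11 of the CCR4-NOT deadenylase, PAN3, and SMG5, SMG6 and SMG8 of nonsense-mediated decay were named in other terms than the matching ones. Export genes numbered 6 of 24 (THOC5, THOC6, NXF1, DDX19B, NCBP1 and MCM3AP), cleavage and polyadenylation genes 4 of 18 (CPSF4, CSTF2, CLP1 and CPSF6) and spliceosome core genes 9 of 43. Of the kinases that phosphorylate SR proteins, SRPK2, CLK2, CLK3 and CLK4 were named (4 of 6), and of the SR and TRA2 genes themselves 0 of 12 were. HNRNPH3 was the only hnRNP gene of 18. For m6A, 2 of 8 writer genes (WTAP and VIRMA) and 0 of 7 readers and erasers were named. These counts stand beside 15.8% of all background genes, and in lists this small a count of 0 or 1 is not read as a difference from it. The difference between these lists was not tested.

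**Figure D3:**
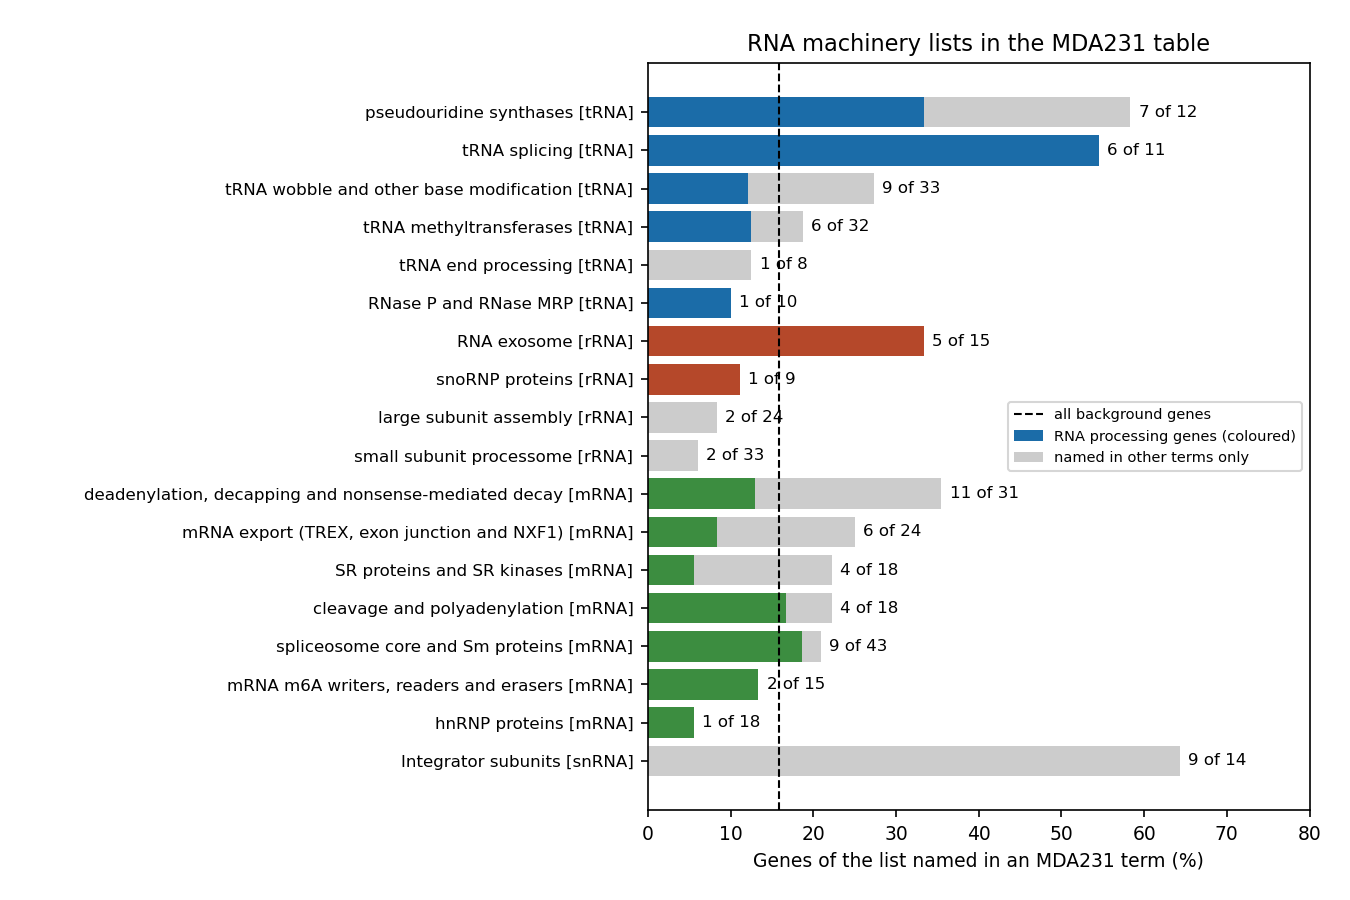
Bars give the percent of each machinery list named in an MDA231 term. The coloured part counts the RNA processing genes, and the grey part counts genes named in other terms only. Colours follow the RNA class given to the list, in brackets, which can differ from the class of the matching term. The exosome genes, in an rRNA list, are members through mRNA terms, and CPSF4, CSTF2 and CLP1, in an mRNA list, through tRNA splicing. The dashed line marks 15.8% for all background genes, and the Integrator bar (9 of 14) is grey throughout because the rule removed those genes.

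Outside the matching terms, the pore genes were in the most other terms and many RNA processing genes were in none. In all, 66 of 111 (59.5%) were named in another MDA231 term, and 45 in none. Without the 13 pore genes the count was 53 of 98. The like share of the other genes named in MDA231 terms is not given here, so 59.5% is not read as high or low. In the authors' deposited table, the terms that passed 0.05 by the adjusted p named 18 of 111 (16.2%), against 32.3% of the 2535 other genes named in MDA231 terms. The rule itself lowers the first share. Of the 10 matching terms, 0 passed, and the rule took out the genes of snRNA transcription, a term that did pass. The 2 shares are therefore not read as a trait of RNA processing genes. The 18 included 8 pore genes, AAAS, NDC1, NUP160, NUP210 and NUP43 in protein transport among them, and CCAR2, RBM38, USP39 and WTAP in cell cycle. RNA phosphodiester bond hydrolysis (endonucleolytic) named 10 members, including TSEN15, TSEN34, TSEN54, POP7, PRORP, CPSF4, EDC3 and ERN1, and pseudouridine synthesis named PUS1, PUS7, PUS7L and TRUB2 among its 7 genes. In the HCC1954 table, 0 of the 111 were named, where only 30 genes are named in all.

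All 111 genes are protein coding in GENCODE release 29. Their spans ran from 1.44 kb (POP7) to 290 kb (RBFOX2) with a median of 25.0 kb, beside a median of 36.1 kb for other genes named in MDA231 terms and 27.1 kb for all protein-coding genes. By class, the median span was 38.1 kb for tRNA genes, 36.5 kb for mRNA genes and 13.2 kb for the 5 rRNA genes. Chromosome 1 held the most members, 14 (12.6%), beside 10.8% of the other named genes. Apart from the PRORP overlap, 3 pairs of members lay within 100 kb of each other: ADAT1 and KARS1 on chromosome 16, 4.17 kb apart, SRPK2 and PUS7 on chromosome 7, 40.4 kb apart, and AGO4 and AGO3 on chromosome 1, 72.8 kb apart. Each pair lies on a single strand.

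A promoter was matched for 92 of 111, with a G and C content of 28.7% to 82.7% and a median of 65.0%, beside medians of 65.3% for 2103 other genes named in MDA231 terms and 58.3% for all 27305 promoters, which include those of non-coding genes. The GC box was in 73.9% of RNA processing promoters, 71.6% of the other named genes' promoters and 44.6% of all promoters. The ETS core was in 29.3% of RNA processing promoters, 21.4% of the other named genes' and 10.7% of all, and the CCAAT box in 33.7%, 36.9% and 35.7% of these sets. The TATA core was in 5.43% of RNA processing promoters, 5.14% of the other named genes' and 12.0% of all, and the NRF1 core in 2.17%, 4.14% and 2.10%. By class, the ETS core was in 9 of 28 tRNA promoters, 5 of 19 mRNA promoters and 3 of 5 rRNA promoters. No test was made of these shares, which also move with G and C content.

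**Figure D4:**
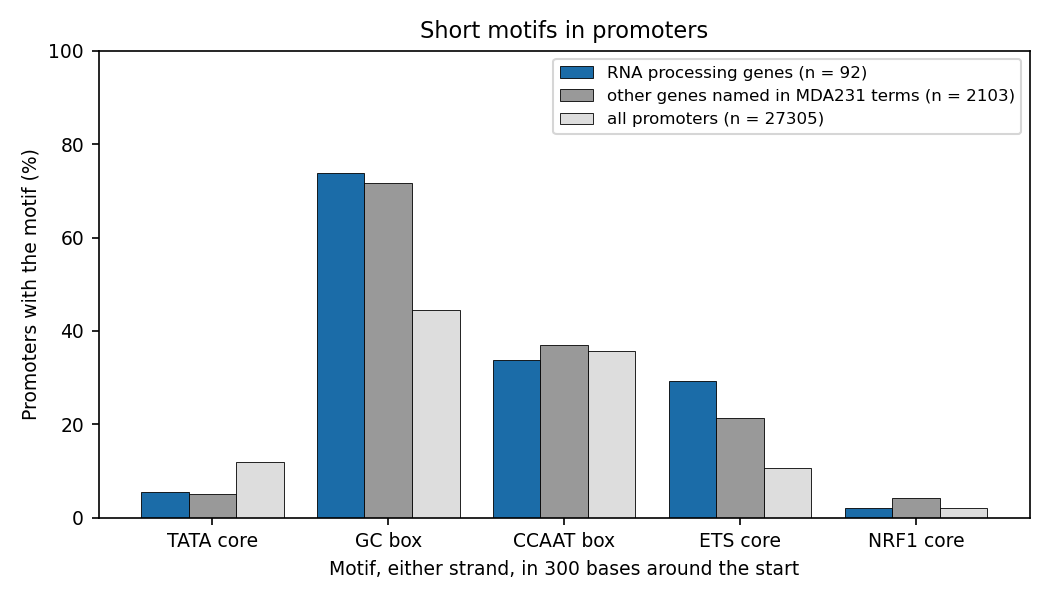
Bars give the percent of promoters, 300 bases each, that hold a motif on either strand, for the RNA processing genes (n = 92), other genes named in MDA231 terms (n = 2103) and all promoters (n = 27305). The first 2 bars of the GC box are close to each other at 73.9% and 71.6%, both above 44.6% for all promoters, while the ETS core stands at 29.3%, 21.4% and 10.7%.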

How the data were processed

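Per the labels' protocols, polyadenylated RNA from mouse brains was immunoprecipitated before library construction, using 2.5 µg anti-BrdU antibody for each brain. STAR, HTSeq, GRCh38 and GRCm38 are named, per the submitters' processing notes. The sources used here do not give versions, how reads were assigned to species, the enrichment tool or how genes entered the list. Per the file headers, the deposited tables hold numbers of genes per term, unadjusted and adjusted p-values and a fold enrichment, the ratio of the listed share to the background share.

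Members were taken by the stated rule on term names, and Ensembl identifiers were matched to symbols (110 of 111). Named genes were every member of terms of at most 25 genes, splicing members in a machinery list and members in most terms; others are marked in the text. The members, the lists and the rule were chosen with earlier results of these data known, and no test of the members was made. The planned test of IP against input needs values per library and was not run. Exact (Clopper-Pearson) 95% intervals cover the draw of genes only. The rule and motif search were tested on simulated data. Promoters are from RefSeq (GRCh38.p14) and coordinates from GENCODE release 29. Python 3.11.15 and SciPy 1.17.1 were used. Some members are not reported here by name.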

Additional observations from a re-analysis of the deposited data

How the results depend on the processing

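No paired analysis was possible because no value per library was analysed, and leaving out a replicate was not possible for the same reason. Of 111 genes, 66 remained under the stricter listing (terms with an unadjusted p under 0.05) and 6 when a gene had to be in at least 2 matching terms. That listing dropped the rRNA methylation term, so the rRNA class held 0 genes instead of 5. FBL, HENMT1 and MRM2 stayed among the 66 through tRNA processing or RNA methylation. In settings chosen after seeing the data, tRNA genes numbered 25 instead of 38 without tRNA export, and mRNA genes 64 instead of 22 with RNA splicing counted as mRNA. Of the 85 named machinery genes, 45 were RNA processing genes and 45 were in at least 2 terms. The gene count was 125 with the removed genes kept, 120 with wider words and 110 for terms of at least 10 background genes. In settings also chosen after seeing the data, the gene count was 110 without the identifier that overlaps PRORP and 98 without tRNA export. Counting identifiers moved the share of tRNA processing to 43.2% and no other term's. Single machinery lists moved by over 1.5 times in 20 of 36 alternatives. Depth and replicate spread are unknown here, and a listed gene in no listed term is not seen.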
